A study of Homo sapiens with 19 samples.

Results

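The YAP and Hippo pathway genes described here were 32 genes, 17 of them components of the pathway and 15 of them targets of its transcription factors. A gene was included through probe sets that the platform annotation assigned to it and to no other gene. This gave 52 of the array's 22283 probe sets, standing for 29 of its 11963 named genes. There were 31 probe sets for 15 components and 21 probe sets for 14 targets. The components LATS2 and AJUBA and the target NUAK2 had no probe set of their own, and NUAK2 shared 1 with another gene.

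The Hippo pathway is a kinase cascade that restrains growth when cells are crowded, rounded or lack tension. The kinases STK3 and STK4, with the scaffold SAV1, activate LATS1 and LATS2, which work with MOB1A. LATS kinases phosphorylate the co-activators YAP1 and WWTR1 (TAZ) and so keep them out of the nucleus, where they would otherwise bind TEAD proteins and switch on targets such as CCN1 and CCN2. In breast cancer cells, YAP1 and WWTR1 are known mainly for promoting growth, survival and invasion. Much of the control acts through phosphorylation and location of the proteins, which an mRNA array does not measure.

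All 19 samples were lines of MDA-MB-231, an established human breast cancer line, with 1 array of total RNA for each line. The 4 strongly bone-metastatic lines (1833, 2274, 2268 and 2269) were set against 3 weakly bone-metastatic lines (2293, 2295 and 2296). The 4 strongly lung-metastatic lines (4142, 4173, 4175 and 4180) were set against 3 weakly lung-metastatic lines (SCP21, SCP6 and SCP26). Lines 1833 and 4175 had each given a subline of raised DNA content (hyper-ploid, named 1833-Hyper and 4175-Hyper, n = 2), set against a subline of the usual DNA content for the line (modal-ploid, named 1833-Modal and 4175-Modal, n = 2). The parental line had 1 array. The weakly bone-metastatic line 2296 carries the name 2297 in other labels of the same sample. All lines were grown in serum-containing medium with antibiotics and with selection drugs that the labels do not name, and they were harvested before confluence. The groups are called strong bone, weak bone, strong lung and weak lung lines below. Every line stems from 1 parental line and was measured once, so p-values measure the spread between related lines and not that between tumours. In such bulk RNA, fewer cells that express a gene and less RNA per cell cannot be told apart.

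The authors' deposited ratios fell into 2 separately divided sets, 1 of 10 arrays with the bone lines, the 1833 ploidy pair and the parental line, and 1 of 9 arrays with the lung lines and the 4175 ploidy pair. Signals were recovered from the ratios and scaled to a common array median, and groups were compared only within a set. Differences are on the scale log2(signal + 16), so they understate the change of dim genes, and limma gave the p-values, adjusted over the 9551 genes that passed a filter on dim probe sets. All 14 targets on the array passed that filter. Of the 15 components on the array 14 passed, and LATS1 did not, with 1 array of 19 above its own array's 40th percentile of signal. The mesenchymal and basal markers VIM, CD44, EGFR and ANXA1 lay above that percentile on 19 of 19 arrays. So did the epithelial markers KRT18 and EPCAM, the latter with signals of 104 to 354. CDH1 did so on 1 array and the hormone receptor PGR on 0, while ESR1 did so on 16 arrays, with signals of 51.5 to 177 over the 19 arrays. Of the markers of other cell types, PTPRC, LYZ, CDH5 and VWF were above it on 0 arrays, PDGFRB on 1, COL3A1 on 7, CD3E and CD14 on 13, HLA-DRA and PECAM1 on 17 and COL1A1 on 19. Spike-in controls before scaling averaged 10.3 to 10.6 in strong bone and 10.4 to 10.6 in weak bone lines on the log2 scale. They averaged 9.36 to 9.86 in strong lung and 9.09 to 9.62 in weak lung lines, 8.44 to 8.59 in hyper-ploid and 8.64 to 8.77 in modal-ploid sublines, and 10.4 in the parental line. Target organ and array handling cannot be told apart.

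The promoter windows of 3 genes that differed between strong and weak bone lines are printed to show the letters that TEAD and AP-1 proteins recognise. The windows come from RefSeq for GRCh38.p14, span 300 bases around a transcription start, and are written 5′ to 3′ along the gene. CCN2, which encodes a secreted matricellular protein and is the most widely used readout of YAP activity, has its window at chr6:131951323-131951622 on the minus strand. AMOTL2, an angiomotin-like protein that binds YAP, has the second of its windows at chr3:134374398-134374697 on the minus strand. In both, capitals mark the TEAD core GGAATG read on either strand. F3, which encodes tissue factor, the cell-surface protein that starts blood clotting, has its window at chr1:94541710-94542009 on the minus strand, and there capitals mark TGANTCA, the letters of AP-1 sites.
CCN2: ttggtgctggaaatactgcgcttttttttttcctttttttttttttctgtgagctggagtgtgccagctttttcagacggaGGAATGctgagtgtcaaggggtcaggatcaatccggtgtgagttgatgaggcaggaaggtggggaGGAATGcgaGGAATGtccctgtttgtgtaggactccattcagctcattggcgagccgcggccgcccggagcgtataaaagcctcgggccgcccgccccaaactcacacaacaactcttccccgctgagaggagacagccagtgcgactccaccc
AMOTL2: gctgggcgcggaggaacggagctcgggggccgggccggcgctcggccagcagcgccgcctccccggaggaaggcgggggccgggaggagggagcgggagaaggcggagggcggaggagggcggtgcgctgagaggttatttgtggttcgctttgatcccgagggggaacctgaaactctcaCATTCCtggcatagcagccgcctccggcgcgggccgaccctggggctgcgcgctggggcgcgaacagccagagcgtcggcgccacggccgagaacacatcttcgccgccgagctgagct
F3: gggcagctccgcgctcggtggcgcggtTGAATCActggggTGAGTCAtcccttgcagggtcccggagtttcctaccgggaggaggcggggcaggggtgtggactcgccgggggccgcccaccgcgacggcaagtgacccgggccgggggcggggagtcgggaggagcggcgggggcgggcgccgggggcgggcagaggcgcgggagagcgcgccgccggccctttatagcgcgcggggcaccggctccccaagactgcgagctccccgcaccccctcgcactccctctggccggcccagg
The CCN2 window held 3 copies of GGAATG, the AMOTL2 window held 1, and the F3 window held 0 copies of it and 2 of TGANTCA. The other AMOTL2 window held 0 copies of either motif. The search read both strands and counted the 2 motifs separately. GGAATG occurred in 6 of the 11 windows found for target genes, those of CCN2, ANKRD1, AXL, FOXF2, NUAK2 and PTPN14. It occurred in 4 of 24 windows for components, those of YAP1, AMOTL2, LATS2 and AJUBA, and in 4928 of all 35116 windows (14.03%). TGANTCA occurred in 2 of the 11 target windows, 1 of the 24 component windows and 2707 of all windows (7.71%). Windows of CCN1, CRIM1, TEAD1, TEAD4, STK3, DLC1, ASAP1 and ARHGEF17 were not analysed here, so of the 10 members called between strong and weak bone lines 4 (CCN2, F3, AMOTL2 and MOB1A) enter these counts. Such matches describe these windows and are not evidence of binding.

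Between strong and weak bone lines, the transcription factors TEAD1 and TEAD4, the LATS partner MOB1A and the angiomotin AMOTL2 were higher in the strong lines, and so were the targets CCN1, CCN2, CRIM1, F3 and ASAP1. The target DLC1 was lower in the strong lines. By size the differences of CCN2 (5.42-fold), DLC1 (0.198 times) and F3 (4.31-fold) came first. YAP1 and WWTR1 did not pass the test. Among the components tested, 4 of 14 were higher and 0 lower, against 6.75% of all tested genes higher, 4.74% lower and 11.5% called in all. Among the targets, 5 of 14 were higher and 1 lower. The median log2 difference was 0.37 for components, 0.61 for targets and 0.01 for all tested genes. Of the 1098 genes called, 645 (58.7%) were higher in strong bone lines, a share of 47.3% when arrays were scaled to a common trimmed mean instead.

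**Figure D1:**
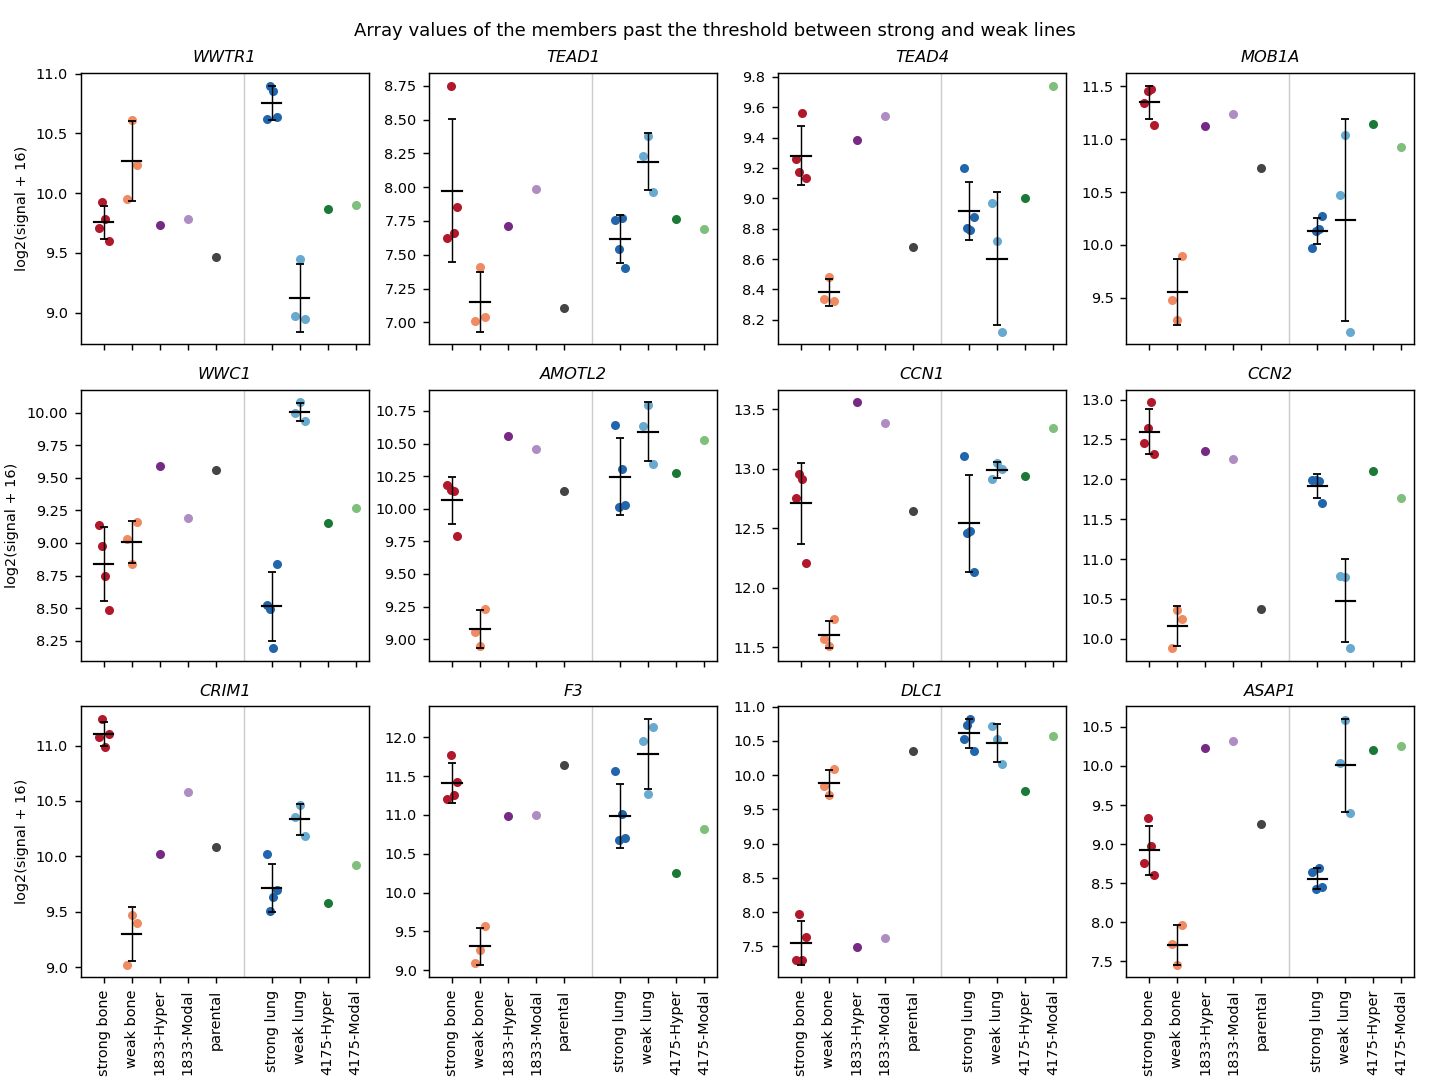
Array values, log2(signal + 16), of the 12 members past the threshold between strong and weak lines for bone or lung. Each point is 1 array, and horizontal lines and bars give the mean and SD of groups of 3 or 4 lines; the grey line parts the 2 separately divided array sets, and each panel has its own vertical scale. CCN2 is the panel in which every strong line lies above every weak line for both organs, and DLC1 is low in the strong bone lines and in both 1833 sublines.

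In the kinase cassette, MOB1A, the adaptor that activates LATS kinases, differed most. Its signal was 2579.7, 2799.6, 2828 and 2233 in strong bone lines 1833, 2274, 2268 and 2269, against 696, 609 and 937 in weak bone lines 2293, 2295 and 2296. The lowest strong line lay above the highest weak line by more than the spread within either group. The log2 difference was 1.80 (SE 0.32, adjusted p = 0.00353, n = 4 against 3). Its other 3 probe sets gave 0.95, 1.18 and 0.64, and the last of these did not pass when all probe sets were tested (adjusted p = 0.108). The kinases STK3 (-0.41, SE 0.25) and STK4 (0.39, SE 0.26) did not pass, with adjusted p = 0.329 for STK3 and 0.380 for STK4. SAV1, the scaffold that joins STK3 and STK4, had signals of 392 to 424 in strong bone and 505 to 515 in weak bone lines. These ranges did not overlap, but the difference of -0.31 (SE 0.13) did not pass (adjusted p = 0.147). The share of all tested genes whose groups did not overlap is not given, so a lack of overlap is only descriptive, here and below.

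Among the regulators upstream of YAP, AMOTL2 had signals of 1149, 1115, 1108 and 871 in strong bone lines 1833, 2274, 2268 and 2269, against 515, 477 and 587 in weak bone lines 2293, 2295 and 2296. After scaling, line 2269 was the lowest of the strong lines, and it too lay above every weak bone line. The difference was 0.99 (SE 0.19, adjusted p = 0.00586). NF2 (merlin), a membrane-linked activator of the cascade, was dim, with signals of 11 to 189.5 in strong bone and 9.04 to 40.1 in weak bone lines. Its difference of 1.496 (SE 0.68) did not pass (adjusted p = 0.178), and the weak bone lines were all below the 40th percentile. A second, dim NF2 probe set ran the other way at -0.71 (SE 0.71). It did not pass either when all probe sets were tested (adjusted p = 0.574), so the direction of NF2 is not settled. WWC1 (KIBRA), a scaffold that recruits the cascade to the membrane, gave -0.17 (SE 0.19, adjusted p = 0.628). Its dimmer second probe set ran the other way at 0.81 (SE 0.54) and did not pass when all probe sets were tested (adjusted p = 0.376). AMOT, the founding angiomotin, was below the percentile in every strong bone line, and its -0.71 (SE 0.48) did not pass (adjusted p = 0.386).

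Among the transcription factors, TEAD4 had signals of 595, 560.2, 739 and 545 in strong bone lines 1833, 2274, 2268 and 2269, against 308, 342 and 304 in weak bone lines 2293, 2295 and 2296. The groups lay well apart, with a difference of 0.90 (SE 0.20, adjusted p = 0.0129), and the second TEAD4 probe set gave 0.95. TEAD1 had signals of 181, 415, 187 and 215 in strong bone lines and 113, 154 and 116 in weak bone lines, in the same order of lines. Line 2274 stood far above the other strong lines, and the groups did not overlap. The TEAD1 difference of 0.82 (SE 0.25, adjusted p = 0.0495) was at the threshold, and without line 2274 it was 0.56 and did not pass (adjusted p = 0.0920). It passed in 3 of the 14 fits that each left out 1 line, with adjusted p up to 0.154. TEAD3 gave 0.35 (SE 0.20, adjusted p = 0.288).

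YAP1, the co-activator that names the pathway's output, had signals of 1189.7, 1035, 845 and 708 in strong bone lines and 734, 640.4 and 691 in weak bone lines. Line 2269 fell inside the weak range on these scaled signals. Its array had the highest median of the strong bone lines before scaling (161.8), so its place depends on the scaling. The difference of 0.42 (SE 0.23) did not pass (adjusted p = 0.266). WWTR1 had signals of 823, 958, 867 and 759 in strong bone lines and 975, 1552 and 1193 in weak bone lines. Its difference of -0.51 (SE 0.19) did not pass either (adjusted p = 0.0995), and its 3 probe sets gave -0.51, -0.11 and 0.41, so they disagreed in direction. VGLL4, which competes with YAP for TEAD, gave -0.30 (SE 0.20, adjusted p = 0.363).

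Among the targets, CCN2 had signals of 5621, 6399, 8001 and 5096 in strong bone lines 1833, 2274, 2268 and 2269, against 927, 1295 and 1200.2 in weak bone lines 2293, 2295 and 2296. No weak line came near the strong range, and the difference was 2.44 (SE 0.24, adjusted p = 4.55e-05). CCN1, the related matricellular protein also called CYR61, had signals of 6914, 7929.8, 7697 and 4731 in strong bone lines and 3025, 2910.0 and 3398 in weak bone lines. Line 2269 was the lowest strong line and still lay above the weak ones, and the difference was 1.10 (SE 0.23, adjusted p = 0.00869). CRIM1, a transmembrane protein that binds bone morphogenetic proteins, had signals of 2142, 2407, 2009 and 2186 in strong bone lines and 504, 693 and 659.8 in weak bone lines. The strong lines were close together and far above the weak ones, with a difference of 1.80 (SE 0.17, adjusted p = 4.02e-05).

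F3 had signals of 2344, 3478, 2431 and 2741 in strong bone lines 1833, 2274, 2268 and 2269, against 532, 598 and 743 in weak bone lines 2293, 2295 and 2296. All strong lines exceeded all weak lines by a wide margin, and the difference was 2.11 (SE 0.26, adjusted p = 0.000261). ASAP1, a GTPase-activating protein for Arf that acts at focal adhesions, had signals of 417, 629.8, 489 and 374 in strong bone lines and 194, 159 and 233 in weak bone lines. These groups did not overlap either, and the difference was 1.21 (SE 0.26, adjusted p = 0.00954). DLC1 ran the other way, with signals of 142, 236, 142 and 183 in strong bone lines and 907, 825 and 1078 in weak bone lines. The strong lines lay far below the weak ones. The DLC1 difference was -2.33 (SE 0.21, adjusted p = 2.94e-05), and a second, dim DLC1 probe set gave -0.08.

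The other 8 targets tested did not pass between strong and weak bone lines. ANKRD1, a nuclear ankyrin-repeat protein, had signals of 482 to 725 in strong bone and 305 to 420.3 in weak bone lines, which did not overlap, and a difference of 0.68 (SE 0.44, adjusted p = 0.362). PTPN14, a phosphatase that binds YAP, had 223 to 388 in strong bone and 182 to 196 in weak bone lines and a difference of 0.54 (SE 0.21, adjusted p = 0.111). MYOF, a ferlin of the plasma membrane, had 5538 to 8259.6 in strong bone and 4139.7 to 4669.5 in weak bone lines and a difference of 0.53 (SE 0.22, adjusted p = 0.131). The receptor kinase AXL (0.09, SE 0.21), ARHGEF17 (0.67, SE 0.65), FJX1, the homologue of the fly four-jointed gene (0.27, SE 0.25), the forkhead factor FOXF2 (0.13, SE 0.25) and the RNA-binding protein RBMS3 (-0.03, SE 0.24) had overlapping groups. A second AXL probe set gave 0.49 (SE 0.20), which did not pass either (adjusted p = 0.133).

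Between strong and weak lung lines, WWTR1 and CCN2 were higher in the strong lines, and WWC1, CRIM1 and ASAP1 were lower there. Among the components tested, 1 of 14 was higher and 1 lower, and among the targets 1 of 14 was higher and 2 lower, against 3.33% of all tested genes higher, 5.45% lower and 8.78% called in all. The median log2 difference was -0.16 for components, -0.29 for targets and -0.01 for all tested genes. Of the 839 genes called, 318 (37.9%) were higher in strong lung lines, a share of 48.9% with quantile normalisation.

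**Figure D2:**
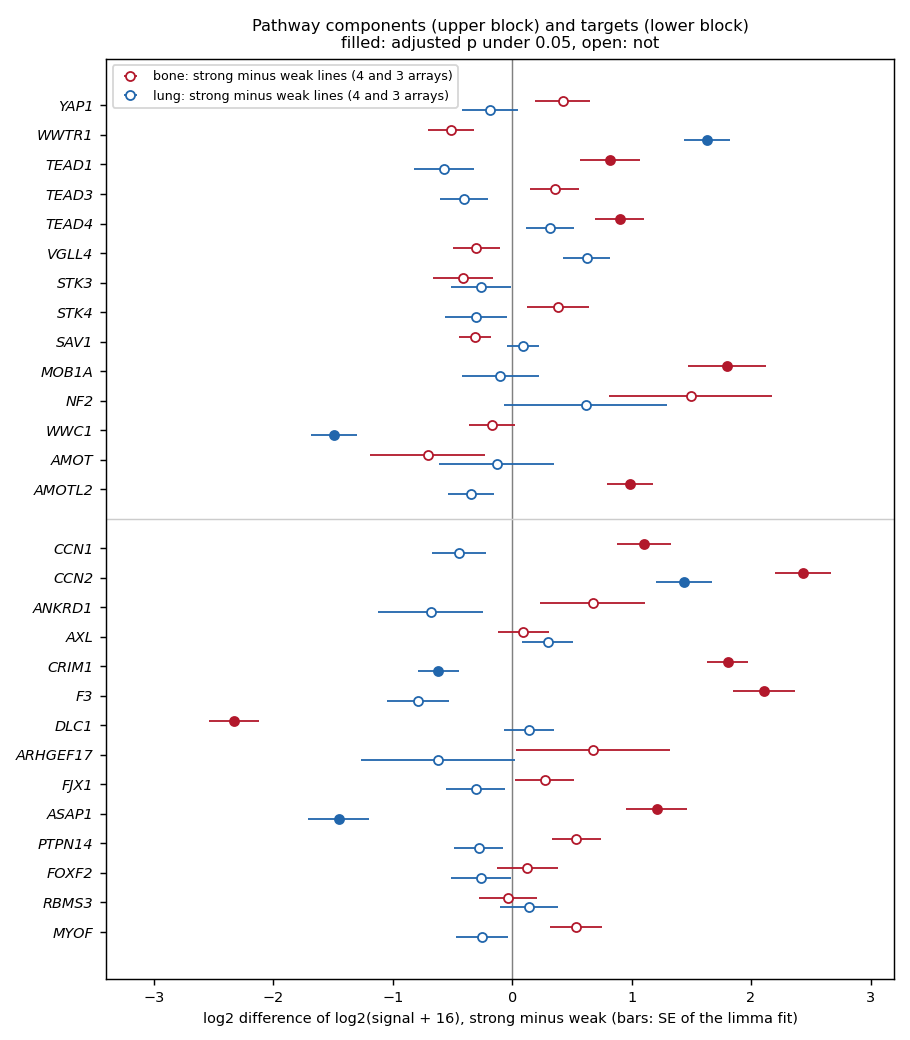
Log2 differences, strong minus weak lines, of the 28 members tested, for bone lines (red) and lung lines (blue), each with 4 strong and 3 weak lines. Bars are the SE of the limma fit and filled points have an adjusted p under 0.05. CCN2 has filled points to the right for both organs, while CRIM1 and ASAP1 have filled points on opposite sides.

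WWTR1, the paralogue of YAP1, had signals of 1557, 1895, 1839 and 1578 in strong lung lines 4142, 4173, 4175 and 4180, against 486, 682 and 478 in weak lung lines SCP21, SCP6 and SCP26. Each strong lung line held more than any weak one, and the difference was 1.63 (SE 0.19, adjusted p = 0.000204, n = 4 against 3). The other 2 WWTR1 probe sets gave 1.31 and 1.55. YAP1 itself had signals of 825, 642, 572 and 630.1 in strong lung lines and 710.1, 1075 and 559.6 in weak lung lines. Those groups overlapped widely, with a difference of -0.19 (SE 0.23, adjusted p = 0.684).

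WWC1 had signals of 353, 345, 276 and 442 in strong lung lines 4142, 4173, 4175 and 4180, against 1005, 1067 and 964 in weak lung lines SCP21, SCP6 and SCP26. The weak lung lines were tightly grouped and far above the strong ones. The difference was -1.49 (SE 0.19, adjusted p = 0.000454), and the dimmer second WWC1 probe set gave -2.62. VGLL4 had signals of 502, 525, 582 and 616 in strong lung lines and 369, 469 and 256 in weak lung lines. The groups did not overlap, and the difference of 0.62 (SE 0.20) did not pass (adjusted p = 0.0653).

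The other components did not pass between strong and weak lung lines. TEAD1 (-0.57, SE 0.25, adjusted p = 0.186), with signals of 153 to 202 in strong lung and 233 to 316 in weak lung lines, and TEAD3 (-0.40, SE 0.20, adjusted p = 0.254) did not overlap between the groups. TEAD4 gave 0.32 (SE 0.20, adjusted p = 0.387). MOB1A had signals of 990.4 to 1219.7 in strong lung lines, inside the range of 563 to 2096 in weak lung lines, and a difference of -0.10 (SE 0.32, adjusted p = 0.895). AMOTL2 gave -0.34 (SE 0.19, adjusted p = 0.307), and STK3, STK4, SAV1, NF2 and AMOT had adjusted p-values from 0.529 to 0.906.

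Among the targets, CCN2 had signals of 4052, 4055, 4037 and 3310.2 in strong lung lines 4142, 4173, 4175 and 4180, against 1747, 1731 and 926 in weak lung lines SCP21, SCP6 and SCP26. Line 4180 was the lowest of the strong lines and lay above every weak lung line. The difference was 1.44 (SE 0.24, adjusted p = 0.00199). ASAP1 had signals of 385, 328, 398 and 334 in strong lung lines and 1036, 1524 and 657 in weak lung lines. The weak lung lines were spread widely but all lay above the strong ones, with a difference of -1.45 (SE 0.26, adjusted p = 0.00318). CRIM1 had signals of 1021, 712, 777 and 812 in strong lung lines and 1297, 1392 and 1146 in weak lung lines. The groups were separate, with a difference of -0.62 (SE 0.17, adjusted p = 0.0376) that did not pass with quantile normalisation (-0.52, adjusted p = 0.0692). It passed in 7 of the 14 fits that each left out 1 line, with adjusted p up to 0.111. The second CRIM1 probe set gave -0.52 (SE 0.22) and did not pass when all probe sets were tested (adjusted p = 0.168).

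F3 had signals of 3023, 1627, 2047 and 1655 in strong lung lines and 3941, 2456 and 4483 in weak lung lines. Line 4142 overlapped the weak lung lines, and the difference of -0.79 (SE 0.26) did not pass (adjusted p = 0.0757). CCN1 gave -0.45 (SE 0.23, adjusted p = 0.267), with signals of 4469 to 8808 in strong lung and 7728 to 8463 in weak lung lines. DLC1 was 1291 to 1799 in strong lung and 1128 to 1665 in weak lung lines, with a difference of 0.14 (SE 0.21, adjusted p = 0.745). ANKRD1 had signals of 525, 364, 75.2 and 249 in strong lung lines 4142, 4173, 4175 and 4180 and 457, 484 and 312 in weak lung lines. Line 4175 was the lowest by far, and the difference of -0.68 (SE 0.44) did not pass (adjusted p = 0.387). AXL, ARHGEF17, FJX1, PTPN14, FOXF2, RBMS3 and MYOF had differences of -0.62 to 0.30 and adjusted p-values from 0.446 to 0.785. AXL gave 0.30 (SE 0.21), and its second probe set ran the other way at -0.42 (SE 0.20, adjusted p = 0.238).

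The test of the bone difference minus the lung difference asked whether strong and weak lines differed in the same way for both organs, and an effect shared by all lines of 1 organ cancels in it. Among the components, 4 of 14 had a higher bone than lung difference (TEAD1, MOB1A, WWC1 and AMOTL2) and 2 a lower one (WWTR1 and VGLL4). Among the targets, 4 of 14 had a higher one (CCN1, CRIM1, F3 and ASAP1) and 1 a lower one (DLC1). Over all tested genes 11.7% were called, 6.92% higher and 4.76% lower, and 59.2% of the called genes were higher, against 48.7% with quantile normalisation and 48.8% with a common trimmed mean. The median was 0.65 for components, 0.91 for targets and 0.03 for all tested genes.

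F3 differed most, by 2.90 (SE 0.37, adjusted p = 0.000266), followed by ASAP1 at 2.66 (SE 0.36, adjusted p = 0.000407). DLC1 differed by -2.47 (SE 0.30, adjusted p = 0.000204) and CRIM1 by 2.43 (SE 0.24, adjusted p = 5.15e-05). For ASAP1 and CRIM1 the strong lines were higher in the bone comparison and lower in the lung comparison, and each of these passed its own test. The second CRIM1 probe set had the same signs, at 1.25 in bone and -0.52 in lung. When all probe sets were tested it passed in bone but not in lung (adjusted p = 0.168). WWTR1 differed by -2.14 (SE 0.27, adjusted p = 0.000266), MOB1A by 1.90 (SE 0.46, adjusted p = 0.0170) and CCN1 by 1.55 (SE 0.32, adjusted p = 0.00774). TEAD1 differed by 1.39 (SE 0.35, adjusted p = 0.0219), AMOTL2 by 1.33 (SE 0.27, adjusted p = 0.00651) and WWC1 by 1.32 (SE 0.27, adjusted p = 0.00707). VGLL4, with -0.92 (SE 0.28, adjusted p = 0.0452), was at the threshold and passed in 2 of the 14 fits that each left out 1 line, with adjusted p up to 0.101. CCN2, called in both organs, differed by 0.999 (SE 0.33) and did not pass (adjusted p = 0.0699). YAP1 differed by 0.61 (SE 0.33, adjusted p = 0.261). AXL differed by -0.20 (SE 0.30) on the probe set used and by 0.91 (SE 0.28, adjusted p = 0.0529) on its second, so its direction is not settled.

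The mean of the bone and lung differences asked which members differed between strong and weak lines across both organs. Among the components, 3 of 14 were higher in strong lines (WWTR1, TEAD4 and MOB1A) and 1 lower (WWC1). Among the targets, 3 of 14 were higher (CCN2, CRIM1 and F3) and 1 lower (DLC1), against 8.88% of all tested genes called, 4.04% higher and 4.84% lower. CCN2 had the largest mean, 1.94 (SE 0.17, adjusted p = 2.28e-05), and was the only member of the 28 tested that was higher in strong lines and passed in each organ alone. TEAD4 had a mean of 0.61 (SE 0.14, adjusted p = 0.0187), with positive differences in both organs. For WWTR1 (0.56), MOB1A (0.85), CRIM1 (0.59), F3 (0.66) and DLC1 (-1.10) the bone and lung differences lay far apart, as the previous test showed, so their means describe neither organ. The same held for WWC1 (-0.83). When all probe sets were tested, the other 3 of MOB1A gave means of 0.37, 0.39 and 0.08, which did not pass. The second probe sets of CRIM1 (0.36, adjusted p = 0.168) and WWC1 (-0.91, adjusted p = 0.171) did not pass either, nor did the dim second one of DLC1 (-0.04). The means of these 4 genes thus passed on 1 probe set each, while the other probe sets of WWTR1 and TEAD4 passed. F3 and MOB1A each passed in 5 of the 14 fits that left out 1 line, with adjusted p up to 0.101 for F3 and 0.0857 for MOB1A, and WWTR1 passed in 13. YAP1 had a mean of 0.12 (SE 0.16, adjusted p = 0.731).

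Other genes of the pathway were read from 2 lists, 38 further components, of which 23 were tested, and 29 further targets, of which 25 were tested. Between strong and weak bone lines, 4 of the 23 components were higher and 1 lower (median 0.27), and 8 of the 25 targets were higher and 1 lower (median 0.17). Of all tested genes 6.75% were higher and 4.74% lower (median 0.01). STRN, a striatin that brings a phosphatase to STK3 and STK4, averaged 219 in strong bone lines and 50.1 in weak bone lines, where it was dim (at least 2.27-fold higher, adjusted p = 0.000335). PALS1, a cell polarity scaffold, averaged 1027 in strong bone and 302 in weak bone lines (1.69, SE 0.21, adjusted p = 0.000328). MAP4K4, a kinase that can act beside STK3 and STK4, averaged 756 in strong bone and 1260.3 in weak bone lines (-0.74, SE 0.22, adjusted p = 0.0416). Of the targets, the stress-response gene GADD45A averaged 1413 in strong bone and 346 in weak bone lines (1.91, SE 0.31, adjusted p = 0.00182), and EDN1, the vasoconstrictor endothelin 1, averaged 744 in strong bone and 204 in weak bone lines (1.74, SE 0.24, adjusted p = 0.000475). THBS1, the matricellular thrombospondin 1, gave 1.43 (SE 0.31, adjusted p = 0.0101). Each of these further genes was read from 1 probe set, and tests of their other probe sets are not given.

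Between strong and weak lung lines, 1 of the 23 further components was higher and 2 lower (median -0.14), and 2 of the 25 further targets were higher and 3 lower (median 0.33). Of all tested genes 3.33% were higher and 5.45% lower (median -0.01), so counts this small lay near the background, and the genes below are given as single genes. WWC3, a relative of WWC1, averaged 443 in strong lung and 1433 in weak lung lines (-1.62, SE 0.20, adjusted p = 0.000286). The kinase TAOK3, of a family that can activate STK3 and STK4, gave -0.76 (SE 0.20, adjusted p = 0.0308). Another TAOK3 probe set did not keep the groups apart, with log2 values of 7.13 to 7.42 in strong lung and 7.36 to 7.54 in weak lung lines. LLGL1, a polarity protein, gave 0.96 (SE 0.28, adjusted p = 0.0486). The guidance ligand SLIT2 averaged 577 in strong lung and 247 in weak lung lines (1.17, SE 0.30, adjusted p = 0.0244). The crosslinking enzyme TGM2 averaged 1572 in strong lung and 3412 in weak lung lines (-1.13, SE 0.19, adjusted p = 0.00236), and GAS6, the ligand of AXL, gave -1.02 (SE 0.23, adjusted p = 0.0126). The other TGM2 probe sets did not all keep the groups apart. Log2 values of another bright probe set were 8.83 to 9.47 in strong lung and 9.27 to 10.76 in weak lung lines. DDAH1, an enzyme that breaks down methylated arginine, was higher in strong than in weak bone lines (1.26, SE 0.21, adjusted p = 0.00221) and lower in strong than in weak lung lines (-0.81, SE 0.21, adjusted p = 0.0279). Its bone and lung differences differed by 2.07 (SE 0.30, adjusted p = 0.000634).

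The parental line shared its array set with the bone lines and had 1 array, so its values were set beside theirs with no test. For the 10 members past the threshold in bone lines, the parental value was nearer to the mean of the strong lines for 5 and to that of the weak lines for 5. On the strong side, parental F3 was 3191, AMOTL2 1109 and CCN1 6385, each inside the range of the strong bone lines. ASAP1, at 597, also lay inside that range, and MOB1A, at 1685, lay between the ranges of the 2 groups. On the weak side, parental CCN2 was 1314 and DLC1 1295, each above the highest weak bone line, and TEAD1, at 122, lay inside the weak range. Parental TEAD4 was 395 and CRIM1 1070.2, between the ranges of strong and weak bone lines. Thus the parental array had a signal of F3 like that of strong bone lines and a signal of CCN2 near that of weak bone lines. Over all members tested, the parental value was nearer the strong bone lines for 8 of 14 components and 8 of 14 targets.

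Between hyper-ploid and modal-ploid sublines, 0 of 14 components and 0 of 14 targets passed the limma test, in which the line of origin was a block, and 1 of all 9551 genes did (0.0105%). At an unadjusted p under 0.05 there were 0 components, 1 target and 504 genes in all. The fit had 2 sublines a side and 1 residual degree of freedom before moderation. The median difference, hyper-ploid minus modal-ploid, was -0.03 for components, -0.39 for targets and -0.01 for all tested genes. Of the 14 targets, 9 were lower in the hyper-ploid subline of both pairs (64.3%) and 1, CCN2, was higher in both, while 22.5% of all tested genes were lower in both. Of the 14 components, 5 were lower in both pairs (35.7%) and 1, AMOT, was higher in both. Of the further genes, 11 of 25 targets (44%) and 9 of 23 components (39.1%) were lower in both. For targets the median was -0.11 between 1833-Hyper and 1833-Modal, where that of all tested genes was 0.06. Between 4175-Hyper and 4175-Modal the target median was -0.51, against -0.06 for all tested genes. The median of the 25 further targets was -0.05 in either pair, so the wider list did not share the shift in the 4175 pair.

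**Figure D3:**
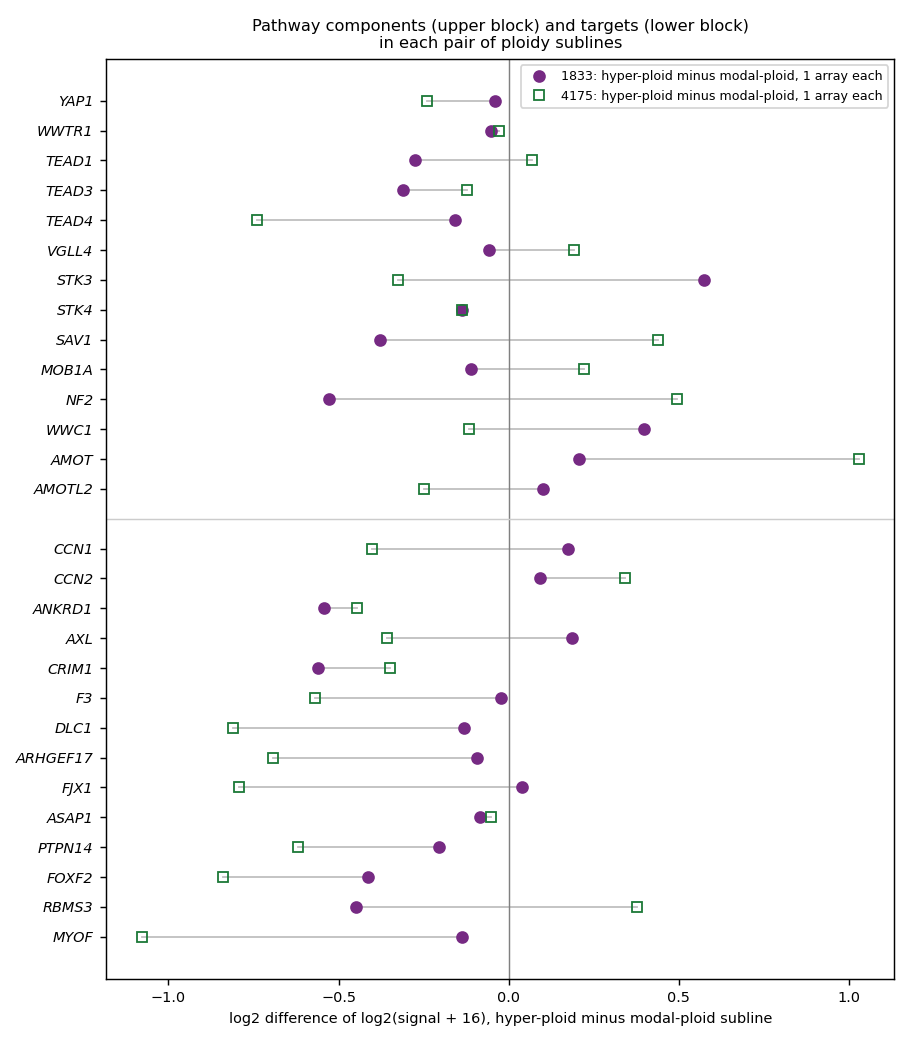
Log2 differences, hyper-ploid minus modal-ploid subline, of the 28 members tested in the 1833 pair (filled circles) and the 4175 pair (open squares), with 1 array for each subline. Of the 14 targets in the lower block, 12 lie left of 0 in the 4175 pair and 10 in the 1833 pair; 0 members passed the test.

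FOXF2 was the target with an unadjusted p under 0.05 (-0.63, SE 0.27, adjusted p = 0.922). Its signal was 552 in 1833-Hyper and 432 in 4175-Hyper, against 740.1 in 1833-Modal and 786 in 4175-Modal. In each pair the hyper-ploid subline was below the modal-ploid one. MYOF had signals of 5615 in 1833-Hyper and 2861 in 4175-Hyper, against 6178 in 1833-Modal and 6055 in 4175-Modal (-0.61, SE 0.30, adjusted p = 0.977), and the 4175 pair carried most of that difference. CCN2 had signals of 5205 in 1833-Hyper and 4384 in 4175-Hyper, against 4878 in 1833-Modal and 3458 in 4175-Modal (0.22, SE 0.27, adjusted p = 0.999). YAP1 had signals of 914 in 1833-Hyper and 886 in 4175-Hyper, against 941 in 1833-Modal and 1050.3 in 4175-Modal (-0.14, SE 0.27, adjusted p = 0.999). AMOT, the component that was higher in both pairs, was dim in all 4 sublines, at 29.2 in 1833-Hyper and 67.1 in 4175-Hyper, against 23.2 in 1833-Modal and 24.8 in 4175-Modal (0.62, SE 0.29, adjusted p = 0.969).

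Some member levels in the ploidy sublines were close to those of the strong lines of the same array set, and others were not. DLC1 was 164 in 1833-Hyper and 182 in 1833-Modal, inside the range of 142 to 236 in strong bone lines. CCN2 in the 4 sublines, at 3458 to 5205, lay above the highest weak line of their own array set. ANKRD1 was 119 in 4175-Hyper and 168 in 4175-Modal, low like its 75.2 in line 4175. In contrast, CRIM1 was 1022 in 1833-Hyper and 1514 in 1833-Modal, below the 2009 to 2407 of the strong bone lines, and ASAP1 was 1187 in 1833-Hyper and 1261 in 1833-Modal, above their 374 to 629.8. In the 4175 pair, WWTR1 was 919 in 4175-Hyper and 938 in 4175-Modal, below the 1557 to 1895 of the strong lung lines. ASAP1 was 1163 in 4175-Hyper and 1206 in 4175-Modal, above the 328 to 398 of the strong lung lines, and MOB1A was 2252 in 4175-Hyper and 1930.1 in 4175-Modal, above their 990.4 to 1219.7. These signals of the 4175 sublines thus lay outside the range of the strong lung lines, line 4175 included. Differences between the lines and between the handling of their arrays cannot be told apart here. Ploidy sublines and lines of origin were not tested against each other, since their spike-in levels differed as given above.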

How the data were processed

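Messenger RNA of 19 lines had been measured on Affymetrix arrays with biotin-labelled cRNA, per the labels' protocols; which software and build lie behind the values is not given in the sources used here. As deposited, they are linear ratios (fold values) from 0.00115 to 361 that, judged from the values, the authors had divided per probe set within 2 array sets. In the first set 91.6% of probe sets had a median ratio of 1, and in the second set 0.0224% did. Undoing a divisor per probe set and a factor per array turned the ratios of either set into whole multiples of 0.1 signal units (tolerance 0.01 steps at low values, largest distance 0.0497). This recovered 22272 of 22283 probe sets (99.95%), against 0% and 0.6% of probe sets shuffled within arrays, and 11 were left out. The number of arrays limits the precision.

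Each array was scaled to the same median signal and taken as log2(signal + 16). Probe sets above their array's 40th percentile on at least 2 arrays were kept (16319), and a gene was read from its brightest one by mean. A dim group's fold is a bound against that percentile. Differences were fitted with limma 3.58.1 in R 4.3.3 (lmFit, eBayes; Benjamini-Hochberg over 9551 genes, threshold 0.05). The 14 strong and weak lines had 1 mean per group. The 4 ploidy sublines had the line of origin as a block, a pairing the labels give. The recovery of signals and the limma fits were tested on simulated data. Other scalings, pseudocounts, filters, probe sets, the ratios themselves and leaving out each line were tried.

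All 32 members were accounted for. A member past the threshold in bone or lung lines has its value on each array of the comparison in which it passed. Of the further pathway genes, those with the largest differences among the called ones were named. The members and lists were chosen with earlier results of these data known.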

Additional observations from a re-analysis of the deposited data

Results flagged for a closer look

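In 2 of 56 tests for a line that stands apart from the other 3 strong lines of its organ, the gap was large for the group's range, and chance gives about 1 such flag in 20 tests. AMOTL2 was 871 in strong bone line 2269, against 1108 to 1149 in the other 3 strong bone lines (gap 0.871 of the range). CCN2 was 3310.2 in strong lung line 4180, against 4037 to 4055 in the other 3 strong lung lines (gap 0.977 of the range). Both lines kept to the side of their group. Each had the highest array median of its group before scaling (161.8 for line 2269, 161.7 for line 4180), so scaling lowered its values most. The flags were not repeated with another scaling.

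For 11 members the strong-minus-weak difference itself differed between bone and lung lines in the limma test. Bone minus lung, these were F3 (2.90), ASAP1 (2.66), CRIM1 (2.43), MOB1A (1.90), CCN1 (1.55), TEAD1 (1.39), AMOTL2 (1.33), WWC1 (1.32), VGLL4 (-0.92), WWTR1 (-2.14) and DLC1 (-2.47). Bone and lung lines lie in separate array sets, and each difference was taken within a set.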

How the results depend on the processing

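Of the 34 calls of a member in a comparison, 26 were kept in every setting tried, and of 797 repeated tests 729 kept the call, 68 lost it and 0 reversed. The calls lost in some setting were TEAD1 in bone lines, CRIM1 in lung lines, TEAD1 and VGLL4 in the bone-minus-lung test, and F3, MOB1A, WWC1 and WWTR1 in the mean of both. Leaving out 1 line at a time gave 541 to 1416 genes in bone (main 1098; 580 without 2293, 541 without 2295, 614 without 2296, 731 without 2274). It gave 501 to 999 in lung (main 839; 532 without 4173, 501 without 4175) and 518 to 908 for the mean (main 848; 518 without 2293, 564 without 2295). Targets called in the bone-minus-lung test numbered 5 to 8 (main 5; 8 without SCP26), and components called for the mean 2 to 5 (main 4; 2 without 2293). A fit on the 7 lung lines alone gave 441 genes, with fewer degrees of freedom. The 1 gene called between ploidy sublines became 0 with quantile normalisation, a trimmed mean, a pseudocount of 4, no filter, the ratios, the probe set of largest spread or no replicate block, and 5 with a stricter filter; 0 members were called in each. The causes were not tested. A trimmed-mean scaling moved the median of all genes in the bone-minus-lung test to -0.10, against 0.03. Dim members (NF2, AMOT, LATS1) have little signal over background.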
